A study of Mus musculus with 5 samples.

Results

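For each gene, the response of thymic cells to dexamethasone in living mice was compared with the response of thymic cells in culture. The in vivo response was the log2 level on the in vivo dexamethasone array minus that on the in vivo PBS array, and the in vitro response was the level in culture with dexamethasone minus that in culture with ethanol. The second was subtracted from the first, so a positive in vivo minus in vitro value means that dexamethasone stood higher over its vehicle in the animal than in culture. The quantity drew on 4 of the 5 arrays and was read over 9882 of 19764 named genes, those whose mean log2 level over the 5 arrays was at or above that of the median gene, 5.28.

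The material was suspended thymic cells, and RNA on each array came from 3 pooled males of the outbred CD-1 stock, 4 to 6 weeks old. The in vivo groups were mice injected intraperitoneally with 0.2 mg dexamethasone per mouse and mice injected with PBS, each taken after 4 h. The in vitro groups were suspensions kept for 4 h at 37 °C in 5% CO2 with dexamethasone (10e-7 M as the labels spell it) or with 0.1% ethanol. An untreated pool gave the fifth array. No allele or transgene was named for any group. The injected mass and the concentration in medium are not matched doses, and each setting had its own vehicle. With 1 array per group the difference of the 2 responses has 0 residual degrees of freedom, so no difference below has a test or a replicate check. Precision is limited by this number of arrays. In such bulk suspensions, fewer cells of a type and less RNA per cell cannot be told apart.

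Dexamethasone is a synthetic glucocorticoid. It binds the glucocorticoid receptor, a transcription factor that then enters the nucleus and acts on chromatin, both by binding its own DNA elements and through other factors such as AP-1. Most thymic cells are immature T cells bearing both CD4 and CD8, and they are known for dying by the Bcl-2-regulated pathway when exposed to glucocorticoid. An injected steroid also reaches macrophages, epithelium, connective tissue and fat in and around the thymus, and other organs.

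Thymocyte genes were high on every array, while markers of macrophages, fat, thymic epithelium and stromal fibroblasts were high on the in vivo and untreated arrays and low on the cultured ones. The median level of 18 kept genes of CD4 and CD8 double-positive thymocytes was 10.28 in mice given dexamethasone, 10.99 with PBS, 10.83 in culture with dexamethasone, 11.40 with ethanol and 11.03 untreated. For 10 kept macrophage markers (of 17 listed) the corresponding medians were 8.97 in mice given dexamethasone, 8.54 with PBS, 4.22 in culture with dexamethasone, 4.59 with ethanol and 8.56 untreated. For 8 kept adipocyte markers (of 12) they were 9.41 in mice given dexamethasone, 8.64 with PBS, 3.41 in culture with dexamethasone, 3.36 with ethanol and 8.99 untreated. The number of kept markers under 5.28 on both cultured arrays was 9 of 10 for macrophages, 8 of 8 for adipocytes, 11 of 14 for thymic epithelium and 10 of 12 for stromal fibroblasts, against 4.45% of all kept genes. Some other marker lists had smaller gaps. The median of 5 kept endothelial markers was 6.23 in mice given dexamethasone and 6.40 with PBS, 5.998 in culture with dexamethasone and 5.88 with ethanol, and 6.26 untreated. That of 9 kept granulocyte markers was 7.95 in mice given dexamethasone and 8.0002 with PBS, 7.47 in culture with dexamethasone and 6.85 with ethanol, and 7.28 untreated. For 6 kept B cell markers it was 6.45 in mice given dexamethasone and 6.61 with PBS, and 5.46 in culture with dexamethasone and 5.90 with ethanol. For 3 kept erythroid markers it was 5.60 in mice given dexamethasone and 6.82 with PBS, and 6.59 in culture with dexamethasone and 7.06 with ethanol. Their part in the results below was not tested.

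**Figure D1:**
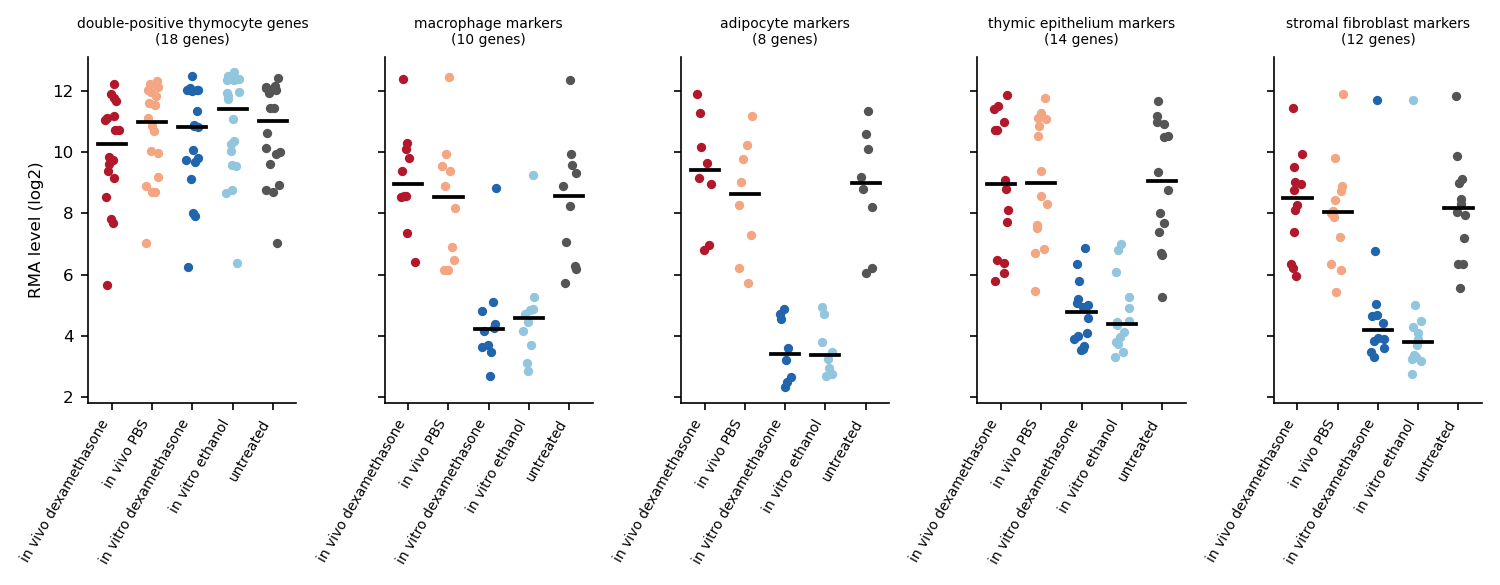
RMA level (log2) of the kept members of 5 marker lists on each array. Each point is a gene and each bar the list's median. The macrophage, adipocyte, epithelial and fibroblast medians on both cultured arrays lie between 3.36 and 4.76, against 8.04 to 9.41 on the other arrays, while double-positive thymocyte medians lie between 10.28 and 11.40 on all 5.

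The in vivo response exceeded the in vitro response by at least 1 in 200 kept genes (2.02%) and fell short of it by at least 1, a value of at most -1, in 159 (1.61%). Without the level threshold the numbers were 418 (2.11%) and 257 (1.3%) of 19764. The median of the in vivo minus in vitro value over kept genes was -0.12, with the 2.5th to 97.5th percentile running from -0.88 to 0.91. It was below 0 for 63.6% of kept genes and above 0 for 36.2%, so list medians below are to be read against -0.12 and not against 0. The edge of each count held genes that hardly differed: Cd68, a macrophage lysosomal protein, was just inside at 1.002, and Mthfd1, an enzyme of folate metabolism, was just inside at -1.0003, with BC025076 just outside at -0.996. At the edge of the level threshold, Aqp3 (mean level 5.28) was kept and Cox6a2 was not.

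The genes at least 1 were mostly genes with their highest level in the mice given dexamethasone. That array was the highest of the 5 for 137 of the 200 (68.5%, against 13.6% of kept genes). Of the 200, 93 were past 1 in size in vivo but not in vitro, 18 in vitro but not in vivo, 8 in both and 81 in neither. In vivo, 101 of them (50.5%) were at least 1 higher with dexamethasone, against 2.71% of kept genes. In vitro, 20 (10%) were at least 1 lower with dexamethasone, against 0.86%. On both cultured arrays 76 of the 200 (38%) were under 5.28, against 4.45% of kept genes.

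The genes at most -1 split between low levels in mice given dexamethasone and low levels in the ethanol culture. The in vivo dexamethasone array was the lowest of the 5 for 83 of the 159 (52.2%, against 33.2% of kept genes), and the ethanol array for 66 (41.5%, against 18.6%). In vivo, 65 of the 159 (40.9%) were at least 1 lower with dexamethasone, against 1.48% of kept genes. In vitro, 25 (15.7%) were at least 1 higher with dexamethasone, against 1.53%. The ethanol culture stood at least 1 below PBS for 84 of the 200 genes at the top (42%) and for 68 of the 159 at the bottom (42.8%), against 7.6% of kept genes. It stood at least 1 above PBS for 49 of the 200 (24.5%) and 2 of the 159 (1.26%), against 2.92%. Since all 4 levels enter the value itself, these shares describe its make-up and nothing is read from them.

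**Figure D2:**
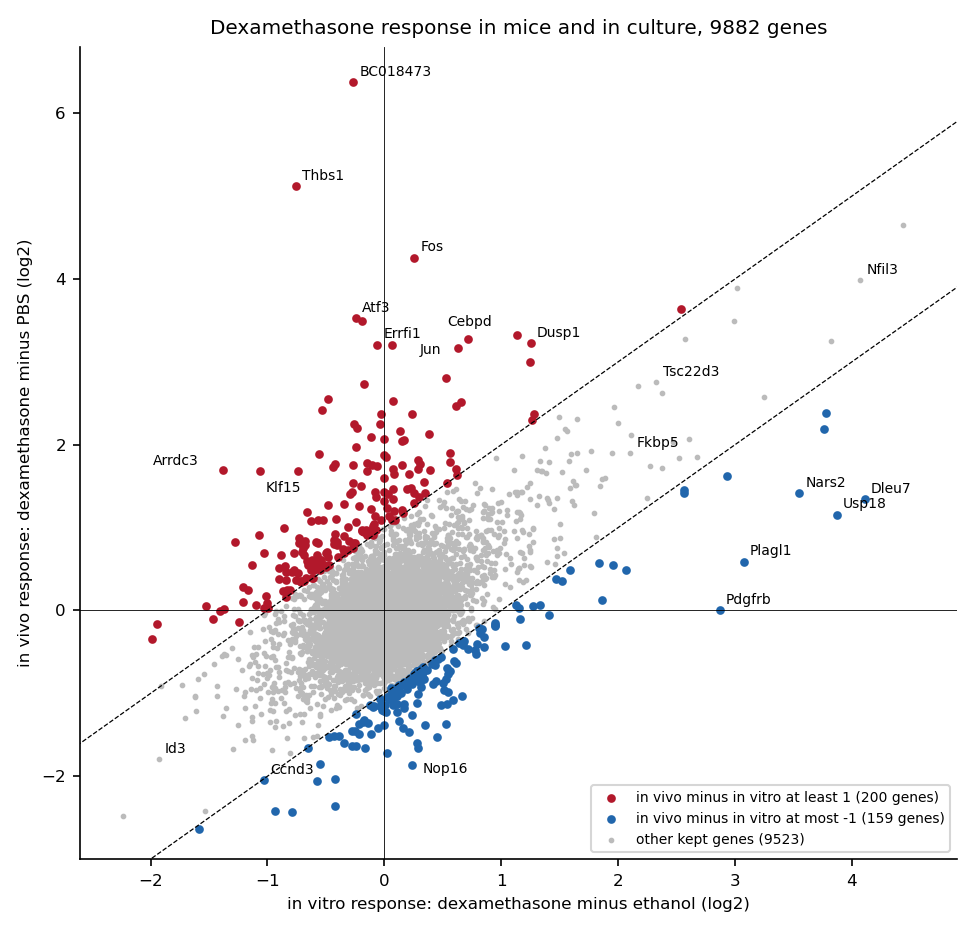
In vivo response (log2, vertical axis) against in vitro response (log2, horizontal axis) for the 9882 kept genes. Dashed lines mark in vivo minus in vitro values of 1 and -1. The 200 red genes lie above the upper line, chiefly near an in vitro response of 0, and the 159 blue genes below the lower line.

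Immediate-early genes, which are transcribed quickly after a stimulus without new protein synthesis, were the list with the most members at the top. Of 19 kept members of the AP-1 and immediate-early list, 9 were at least 1 (2.02% of all kept genes) and 0 were at most -1, with a median of 0.89 (0.87 over the 24 on the array, and 1.87 with the untreated array as the baseline of both settings). Fos, a subunit of AP-1, stood at 10.80 in mice given dexamethasone and 6.54 with PBS, at 6.47 in culture with dexamethasone and 6.21 with ethanol, and at 6.83 untreated. The single high array was in vivo dexamethasone, and the value for Fos came to 4.01. Jun, its partner, stood at 9.46 in mice given dexamethasone and 6.29 with PBS, at 6.37 in culture with dexamethasone and 5.75 with ethanol, and at 7.38 untreated. Its difference was 2.54, and 2.01 to 2.54 over its probe sets. Atf3, a stress-responsive bZIP factor, stood at 8.88 in mice given dexamethasone and 5.36 with PBS, at 4.69 in culture with dexamethasone and 4.93 with ethanol, and at 5.67 untreated, a difference of 3.77.

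The remaining immediate-early members past 1 were Ier3 at 2.20, Klf6 at 1.69, Junb at 1.37, Ier2 at 1.06, and the orphan nuclear receptors Nr4a1 and Nr4a3, both at 1.05. Junb, another AP-1 subunit, stood at 8.81 in mice given dexamethasone and 7.41 with PBS, and at 7.02 in culture with dexamethasone and 6.995 with ethanol. Its cultured levels were therefore alike. The list was not uniform: Egr1, a zinc finger factor of the same class, had a value of 0.39, Jund -0.18 and Egr2 -0.59. In 13 of the 19 genes the in vivo dexamethasone array was the highest of the 5 (13.6% of kept genes), and in 0 was it the dexamethasone culture (30.9%). On both cultured arrays 4 of the 19 were under 5.28 (4.45% of kept genes). Without the in vivo dexamethasone array the means of Atf3, Ier3 and Klf4 would fall under 5.28. The level threshold thus partly fixed these counts. The 19 genes were short, with a median span of 4.29 kb against 22.6 kb for 9255 kept genes with a span in the RefSeq table. Of the 17 with a RefSeq promoter, 0 held the AP-1 site TGACTCA, on either strand, in the 250 bases before the start (4.46% of all 32851 promoters in the table, and 2.77% of the 7475 promoters found for the 9882 kept genes).

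Genes of secreted matrix and growth factor feedback also held some of the highest values. Thbs1, which encodes the matricellular protein thrombospondin 1, and Ccn1, a matricellular protein of the CCN family, are both secreted to the cell surroundings. Ccn1 stood at 9.15 in mice given dexamethasone and 5.65 with PBS, at 4.39 in culture with dexamethasone and 4.58 with ethanol, and at 6.18 untreated. Its difference was 3.69, with 1.86 to 3.69 over its probe sets. Errfi1, a feedback inhibitor of the EGF receptor that is also a glucocorticoid target, stood at 10.77 in mice given dexamethasone and 7.56 with PBS, at 6.65 in culture with dexamethasone and 6.71 with ethanol, and at 8.14 untreated. Its difference was 3.27, and 3.05 to 3.27 over its probe sets. Of the 21 members of that list, 9 were kept and 3 of these were at least 1 (2.02% of kept genes), with a median of -0.29. Over all 21 without the level threshold, 9 were at least 1 (2.11% of all genes) and the median was 0.29. With the threshold at the 75th percentile the median was 1.33. At the low end was Plaur, the urokinase receptor, at -0.82, with an in vivo response of 1.85 and an in vitro response of 2.68.

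Gdf15, a stress-induced cytokine of the TGF-beta superfamily, stood at 7.89 in mice given dexamethasone and 4.69 with PBS, at 4.69 in culture with dexamethasone and 4.62 with ethanol, and at 4.66 untreated. The other arrays lay within 0.07 of one another, and the value for Gdf15 came to 3.14. 1200016E24Rik, a gene with no name beyond its clone, stood at 11.26 in mice given dexamethasone and 8.71 with PBS, at 8.67 in culture with dexamethasone and 9.16 with ethanol, and at 8.59 untreated, a difference of 3.04. Cul4a, a ubiquitin ligase scaffold, had a value of 2.95, but its probe sets ran from -0.05 to 2.95. Tcim was at 2.91, with both cultured levels, 3.27 with dexamethasone and 3.45 with ethanol, far under 5.28.

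**Figure D3:**
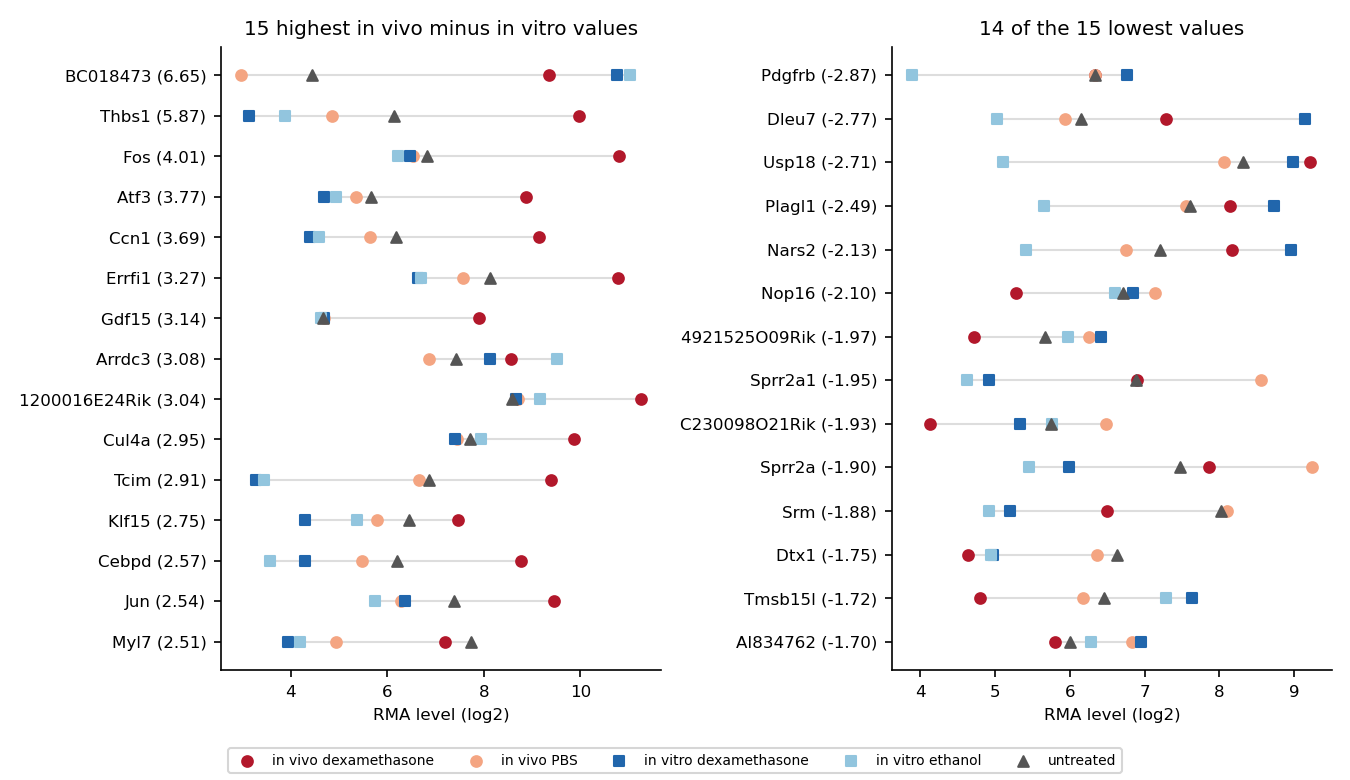
RMA level (log2, horizontal axis) on all 5 arrays for the 15 highest genes by in vivo minus in vitro value (left) and 14 of the 15 with the lowest (right), each value in parentheses. On the left the in vivo dexamethasone point is the highest for 12 of 15 genes. On the right the ethanol point is the lowest for 8 of 14. The genes were picked by this value, so these orders describe its make-up.

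Classical glucocorticoid targets divided into a group with closely matching responses and a group with a larger response in the animal. Of 21 kept members of that list, 7 were at least 1 (2.02% of kept genes), 1 was at most -1 (1.61%) and the median was 0.43. Tsc22d3, the glucocorticoid-induced leucine zipper, stood at 11.43 in mice given dexamethasone and 8.68 with PBS, at 11.33 in culture with dexamethasone and 8.9995 with ethanol, and at 8.93 untreated. Both dexamethasone arrays stood above the other 3, and the value for Tsc22d3 came to 0.43. Fkbp5, an Hsp90 co-chaperone that dampens receptor signalling, had a value of -0.21, though its probe sets ran from -0.21 to 1.15. Txnip, an inhibitor of thioredoxin, was at -0.12 and Per1, a clock repressor, at 0.41. Nr3c1, the receptor itself, stood at 10.90 in mice given dexamethasone and 9.59 with PBS, at 10.97 in culture with dexamethasone and 9.97 with ethanol, a value of 0.31 (-0.15 to 1.22 over probe sets).

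The 7 targets past 1 were Errfi1, Cebpd at 2.57, Mt2 at 2.28, Dusp1 at 1.97, Sgk1 at 1.81, Mt1 at 1.76 and Anxa1 at 1.08. Sgk1, a serum- and glucocorticoid-induced kinase, stood at 9.79 in mice given dexamethasone and 8.25 with PBS, and at 6.81 in culture with dexamethasone and 7.09 with ethanol. The in vivo response was 1.54 and the in vitro response -0.27. Cebpd, a C/EBP transcription factor, stood at 8.76 in mice given dexamethasone and 5.48 with PBS, at 4.29 in culture with dexamethasone and 3.58 with ethanol, and at 6.21 untreated. Its other probe set gave 0.02. In the opposite direction, Ddit4, an inhibitor of mTORC1, stood at 10.65 in mice given dexamethasone and 9.23 with PBS, at 11.13 in culture with dexamethasone and 8.56 with ethanol, and at 8.80 untreated. It was higher with dexamethasone in both settings, by 1.42 in vivo and 2.56 in vitro, and its difference was -1.14.

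Dusp1, a phosphatase that switches off MAP kinases, was past 1 in both settings and still differed between them. It stood at 11.59 in mice given dexamethasone and 8.36 with PBS, at 9.60 in culture with dexamethasone and 8.35 with ethanol, and at 8.58 untreated. Its 3 arrays without dexamethasone lay close together, so its value of 1.97 is the gap between the dexamethasone arrays. Crem, a cAMP-responsive factor, also had near vehicle levels and a value of 1.89. The 250 bases before the Dusp1 start (RefSeq, GRCm38.p6, chr17:26508473-26508722, minus strand) are shown because they hold the cAMP response element TGACGTCA, in capitals. It lies 143 bases before the start, and 1.55% of all promoters in the table, or 2.98% of those of kept genes, hold it on either strand. The Mcm5 promoter printed further below also holds it, in lower case, and Mcm5 had a value of -0.89. Any link of the element to the values was not tested.
Dusp1: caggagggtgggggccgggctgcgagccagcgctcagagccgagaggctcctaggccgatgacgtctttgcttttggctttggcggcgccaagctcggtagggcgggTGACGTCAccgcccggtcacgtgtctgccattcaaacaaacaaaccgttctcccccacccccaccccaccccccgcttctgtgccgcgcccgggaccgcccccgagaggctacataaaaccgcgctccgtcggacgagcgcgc

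Some metal-binding and antioxidant genes had values past 1. Of 12 kept members of the metallothionein and oxidative stress list, 5 were at least 1 (2.02% of kept genes) and 0 at most -1 (1.61%). Values were above 0 for 7 (36.2% of kept genes) and below 0 for 5 (63.6%). The median was 0.38 (1.77 with the untreated array as both baselines). Mt2, a metallothionein that binds zinc and copper, stood at 10.80 in mice given dexamethasone and 7.99 with PBS, at 6.48 in culture with dexamethasone and 5.95 with ethanol, and at 7.76 untreated. The in vivo dexamethasone array was the highest and the cultured arrays were the lowest. Hmox1, the haem-degrading enzyme, stood at 8.52 in mice given dexamethasone and 6.15 with PBS, at 4.81 in culture with dexamethasone and 4.84 with ethanol, and at 5.71 untreated, a value of 2.40. Hmox1 is also on the macrophage list. Gclc, the catalytic subunit of glutathione synthesis, had near vehicle levels (8.29 with ethanol, 8.18 with PBS) and a value of 1.70, with 9.59 in mice given dexamethasone and 7.99 in culture with dexamethasone. Its partner subunit Gclm had a value of -0.05. The other probe set of Mt1 gave -0.08.

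The Mt2 promoter (RefSeq, GRCm38.p6, chr8:94172368-94172617, plus strand) is shown because its letters hold both factor and metal motifs. Capitals mark an AP-1 site, TGACTCA, 79 bases before the start, and 3 metal response elements, TGCACNC or TGCGCNC on either strand, at 223, 128 and 50 bases before it. The first metal form is in 10.4% of all promoters in the table and 10.1% of those of kept genes, and the second is in 12.5% of all and 23.2% of those of kept genes. The palindromic glucocorticoid response element was in 3 of 32851 promoter windows (0.00913%), so the windows say little about it.
Mt2: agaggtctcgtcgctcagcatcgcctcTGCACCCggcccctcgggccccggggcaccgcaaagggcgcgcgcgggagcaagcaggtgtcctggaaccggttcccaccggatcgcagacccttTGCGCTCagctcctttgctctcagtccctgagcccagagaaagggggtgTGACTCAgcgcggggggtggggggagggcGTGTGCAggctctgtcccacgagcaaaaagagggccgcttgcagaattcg

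DNA replication genes were lower with dexamethasone in the animal and higher with it in culture. Of 29 kept members (all of those listed), 28 had an in vivo minus in vitro value below 0 (63.6% of all kept genes), 27 were below the median of kept genes, 3 were at most -1 (1.61%), and the median was -0.64. In 25 of the 29 the response was below 0 in vivo and above 0 in vitro (29.2% of kept genes). The in vivo dexamethasone array was the lowest of the 5 for 27 of 29 (33.2% of kept genes) and the dexamethasone culture the highest for 19 (30.9%). The sizes were small, and the median response was -0.39 in vivo and 0.24 in vitro.

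Cdc6, a loader of the replicative helicase, stood at 7.32 in mice given dexamethasone and 8.45 with PBS, at 8.38 in culture with dexamethasone and 8.27 with ethanol, and at 8.63 untreated. The in vivo dexamethasone array was about 1 below all others, and the value was -1.24. Mcm10, an initiation factor, stood at 6.72 in mice given dexamethasone and 7.54 with PBS, at 7.67 in culture with dexamethasone and 7.33 with ethanol, and at 7.56 untreated, a value of -1.16 (up to 0.15 over its probe sets). Mcm3, a subunit of the helicase, stood at 8.30 in mice given dexamethasone and 8.94 with PBS, at 9.01 in culture with dexamethasone and 8.59 with ethanol, and at 9.16 untreated. Its value was -1.05, and -1.20 to -0.80 over its probe sets. Gins2, of the same helicase complex, was the exception at 0.10. Outside the list, genes with lower values included Pold2, a subunit of DNA polymerase delta, at -1.53, Chaf1b, a subunit of the chromatin assembly factor, at -1.29, and Dscc1, a clamp loader subunit, at -1.67. The other probe set gave 0.16 for Chaf1b and 0.21 for Dscc1.

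The promoters of Mcm5 and Mcm6, helicase subunits, are shown because they hold the E2F site, the element of S-phase genes, searched as TTTCGCGC and TTTGGCGC on both strands. At least 1 of these forms was in 5 of the 24 DNA replication genes with a RefSeq promoter (20.8%), in 1.47% of the promoters of kept genes and in 0.654% of all promoters in the table. Mcm5 (GRCm38.p6, chr8:75109259-75109508, plus strand) stood at 9.87 in mice given dexamethasone and 10.31 with PBS, and at 10.53 in culture with dexamethasone and 10.09 with ethanol, a value of -0.89. Mcm6 (chr1:128359706-128359955, minus strand) stood at 10.05 in mice given dexamethasone and 10.44 with PBS, and at 10.58 in culture with dexamethasone and 10.34 with ethanol, a value of -0.63. Both had the in vivo dexamethasone array lowest of these 4. Capitals mark the E2F letters, 2 overlapping matches in Mcm5 and 3 matches in Mcm6, of which the first 2 overlap.
Mcm5: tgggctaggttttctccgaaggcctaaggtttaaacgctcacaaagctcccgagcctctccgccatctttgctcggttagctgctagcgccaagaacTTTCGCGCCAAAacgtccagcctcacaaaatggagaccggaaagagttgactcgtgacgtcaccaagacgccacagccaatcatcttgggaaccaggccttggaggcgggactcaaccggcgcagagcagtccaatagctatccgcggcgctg
Mcm6: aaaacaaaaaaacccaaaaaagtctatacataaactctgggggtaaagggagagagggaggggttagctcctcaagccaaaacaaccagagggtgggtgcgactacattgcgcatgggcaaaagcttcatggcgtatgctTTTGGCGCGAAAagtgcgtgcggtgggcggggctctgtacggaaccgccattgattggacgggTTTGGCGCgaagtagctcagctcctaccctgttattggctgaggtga

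Genes that build ribosomes also had mostly negative values, with a different order of the arrays. Of 19 kept members of that list, 17 had a value below 0 (63.6% of kept genes), with a median of -0.62. At most -1 were 2 (1.61%), and 0 were at least 1 (2.02%). In 12 of 19 the response was below 0 in vivo and above 0 in vitro (29.2% of kept genes). The in vivo dexamethasone array was the lowest of the 5 for 6 of 19 (33.2% of kept genes), the dexamethasone culture the highest for 4 (30.9%) and the ethanol culture the lowest for 7 (18.6%). Nop16, a nucleolar protein of the large subunit pathway, stood at 5.28 in mice given dexamethasone and 7.14 with PBS, at 6.84 in culture with dexamethasone and 6.61 with ethanol, and at 6.71 untreated. Its value was -2.10, but its other probe set gave -0.24. Rrs1, another assembly factor, was at -1.08, Rrp9 at -0.90 and Utp20 at -0.86. Rpf2, with a role in 5S particle assembly, was outside the list at -1.29. The most abundant nucleolar proteins differed little, with Ncl at -0.01 and Npm1 at 0.02.

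Among 18 kept G1 cyclins and inhibitors of cell cycle entry, 14 had a value below 0 (63.6% of kept genes), 2 were at most -1 (1.61%) and the median was -0.36. Both median responses of that list were below 0, at -0.54 in vivo and -0.11 in vitro. Cdkn1a, which encodes the inhibitor p21, had the highest value of the kept members, 0.70. Cdkn1b, another inhibitor of that list, was just under the level threshold (mean level 5.27) and had a value of 1.43. Ccne2, the cyclin of S-phase entry, stood at 6.87 in mice given dexamethasone and 7.72 with PBS, and at 7.87 in culture with dexamethasone and 7.59 with ethanol, a value of -1.14. Ccnd3, the D-type cyclin of thymocytes, stood at 9.58 in mice given dexamethasone and 11.62 with PBS, and at 9.92 in culture with dexamethasone and 10.96 with ethanol. It was lower with dexamethasone in both settings, and its value of -1.01 became 0.09 when the median of its probe sets was used. The 23 mitosis genes had a median of -0.03, with 0 past 1 either way. Srm, which makes spermidine, stood at 6.50 in mice given dexamethasone and 8.09 with PBS, at 5.20 in culture with dexamethasone and 4.92 with ethanol, and at 8.02 untreated, a value of -1.88.

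**Figure D4:**
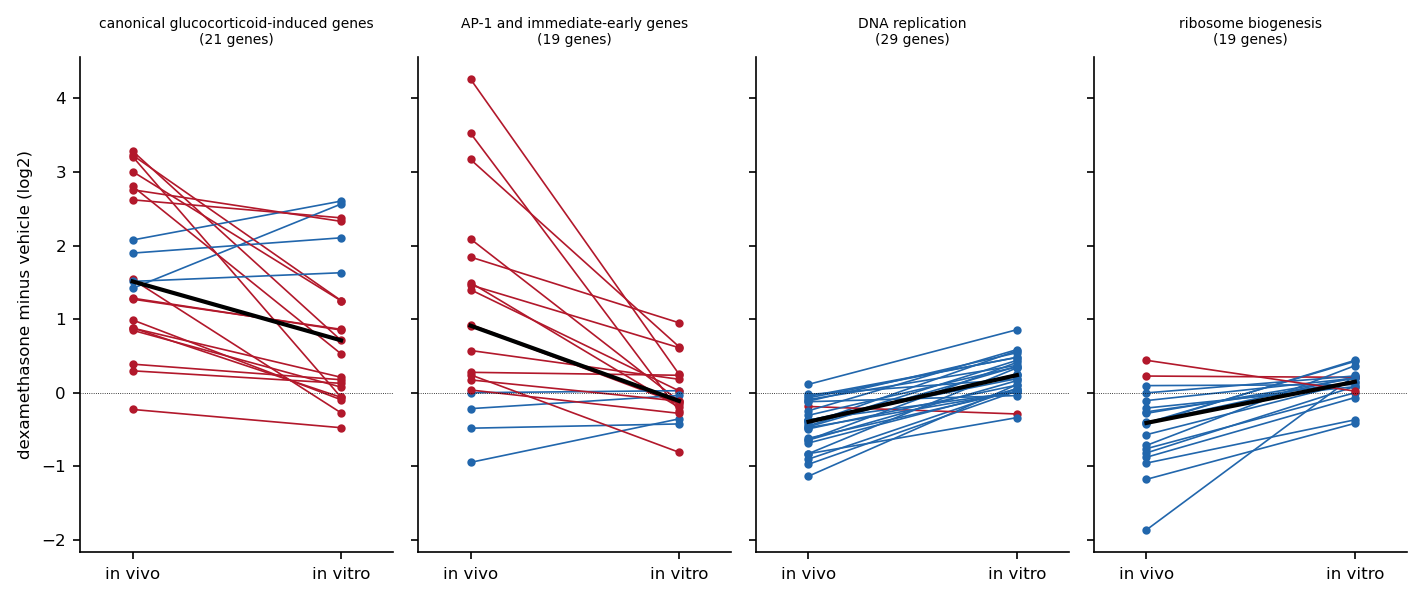
Dexamethasone minus vehicle (log2) in vivo and in vitro for the kept members of 4 lists. Each line joins the responses of 1 gene, red where the in vivo response is the higher and blue where it is the lower, and the black line joins the list medians. For DNA replication the medians are -0.39 in vivo and 0.24 in vitro, and 28 of 29 lines are blue.

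Cholesterol synthesis was a list on which the settings gave near-equal values. All 24 listed genes were kept, 0 were past 1 either way and the median in vivo minus in vitro value was 0.06, from responses of -0.51 in vivo and -0.55 in vitro. Sqle, the enzyme that makes squalene epoxide, stood at 6.66 in mice given dexamethasone and 7.65 with PBS, at 7.03 in culture with dexamethasone and 8.23 with ethanol, and at 7.27 untreated. It was lower with dexamethasone in both settings. Hmgcs1, an early enzyme of the pathway, had the largest value of the list, 0.82, with the ethanol array (10.68) above PBS (9.42). Its probe sets ran from 0.55 to 1.86, so the near-equal reading of Hmgcs1 depends on the probe set.

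The main mediators of thymocyte death had near-equal responses. Bcl2l11, which encodes Bim, stood at 11.31 in mice given dexamethasone and 9.97 with PBS, at 11.33 in culture with dexamethasone and 10.09 with ethanol, and at 10.03 untreated, a value of 0.10 (-0.39 to 1.22 over its probe sets). Bbc3, which encodes Puma, had responses of 1.70 in vivo and 1.72 in vitro. Bmf, another BH3-only protein, was at -0.12. Of 12 kept pro-apoptotic Bcl-2 genes, 1 was at least 1 (2.02% of kept genes) and 1 at most -1 (1.61%), with a median of 0.04. Pmaip1, which encodes the BH3-only protein Noxa, stood at 7.51 in mice given dexamethasone and 6.24 with PBS, at 6.02 in culture with dexamethasone and 6.50 with ethanol, and at 6.96 untreated, a value of 1.75. Bid, the caspase-8 substrate, stood at 6.85 in mice given dexamethasone and 7.97 with PBS, at 6.71 in culture with dexamethasone and 6.43 with ethanol, and at 7.76 untreated, a value of -1.40.

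The 14 kept caspase and apoptosome genes had a median of -0.20 and 0 past 1 either way. Of 5 kept anti-apoptotic genes, 0 were past 1 and the median was 0.27 (1.10 with the untreated array as both baselines). Bcl2, the founding member, was higher with dexamethasone by 1.18 in vivo and 0.91 in vitro. Of 17 kept p53 targets, 2 were at least 1 (2.02% of kept genes), Pmaip1 and Perp, an epithelial desmosome protein. The level of Perp was 9.22 in mice given dexamethasone and 8.40 with PBS, against 2.87 in culture with dexamethasone and 3.28 with ethanol.

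Shared responses stood beside these differences. At least 1 in both settings were 93 kept genes (0.941%), with a median in vivo minus in vitro value of 0.06, and 58 of these lay within 0.5 of 0. At most -1 in both were 24 genes (0.243%), with a median of -0.09, and 19 lay within 0.5. Closest among the higher genes were Usp54, Rps6ka5, Man1a2, Bbc3, Sptssa and Acp5, with values from -0.04 to 0.03. Usp54 stood at 7.15 in mice given dexamethasone and 5.04 with PBS, and at 6.46 in culture with dexamethasone and 4.35 with ethanol. Closest among the lower genes were Vamp1, Ifit1, Rdh10, Cxcr6, Hivep3 and Id3. Both cultured levels of Ifit1, 3.38 with dexamethasone and 4.57 with ethanol, were under 5.28, which limits what its match can show. Id3, an inhibitor of E proteins in thymocytes, stood at 7.64 in mice given dexamethasone and 9.44 with PBS, at 7.40 in culture with dexamethasone and 9.33 with ethanol, and at 9.41 untreated. Nfil3, a bZIP repressor, had responses of 3.98 in vivo and 4.07 in vitro.

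Genes whose responses ran in opposite directions, both at least 0.5 in size, were 41 with the in vivo response above 0 (0.415%) and 13 with it below 0 (0.132%). Arrdc3, an arrestin-like adaptor, stood at 8.57 in mice given dexamethasone and 6.87 with PBS, at 8.13 in culture with dexamethasone and 9.51 with ethanol, and at 7.43 untreated. The highest array was the ethanol culture, and the other probe set of Arrdc3 gave -0.64. Klf15, a metabolic zinc finger factor and glucocorticoid target in liver and muscle, stood at 7.47 in mice given dexamethasone and 5.78 with PBS, at 4.30 in culture with dexamethasone and 5.37 with ethanol, and at 6.45 untreated. Its other probe set gave -0.29. Nfkbiz, a nuclear regulator of NF-kB target genes, stood at 8.54 in mice given dexamethasone and 7.71 with PBS, at 5.24 in culture with dexamethasone and 6.51 with ethanol, and at 8.17 untreated.

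Of the converse kind, Dscc1 stood at 4.98 in mice given dexamethasone and 6.06 with PBS, at 7.23 in culture with dexamethasone and 6.65 with ethanol, and at 5.74 untreated. Pold2 stood at 6.73 in mice given dexamethasone and 7.72 with PBS, at 8.16 in culture with dexamethasone and 7.61 with ethanol, and at 7.68 untreated. In both, the in vivo dexamethasone array was the lowest of the 5 and the dexamethasone culture the highest. Grwd1, a ribosome assembly chaperone, had responses of -0.61 in vivo and 0.60 in vitro, and its low array was the ethanol culture, at 5.60 against 6.83 with PBS.

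Many differences rested on vehicle levels that were far apart, so the 7000 kept genes whose ethanol and PBS levels lay within 0.5 were read on their own. Among them 33 were at least 1 (0.471%) and 51 at most -1 (0.729%). The 10 highest were Fos, Atf3, Gdf15, 1200016E24Rik, Cul4a, Klf15, Depp1 at 2.29, 9530053H05Rik at 2.17, Dusp1 and Crem, and the in vivo dexamethasone array was the highest of the 5 for all 10. The 10 lowest had it as the lowest array in 9. These genes were picked by the value itself with near vehicle levels, so such array orders were largely fixed by the choice. Nothing is read from them. Gdf15 reached the level threshold, with a mean of 5.31, only through the in vivo dexamethasone array. Without that array the mean would also fall under the threshold for Atf3. The same held, among other kept genes, for Thbs1, Ccn1, Cebpd, Tcim, Myl7, Ier3, Klf4 and Mrc1. Counts of kept genes at least 1, and shares with that array highest, were therefore partly fixed by the threshold. Besides Pold2, Chaf1b and Rpf2, the 10 lowest held 4921525O09Rik, Ocel1, Arsi, Prr29, Sirt5, Sbk1 and Trbv13-2. Sirt5, a mitochondrial deacylase, stood at 4.66 in mice given dexamethasone and 6.15 with PBS, at 6.35 in culture with dexamethasone and 6.46 with ethanol, and at 6.15 untreated. Trbv13-2, a variable segment of the T cell receptor beta chain, stood at 7.13 in mice given dexamethasone and 8.51 with PBS, and at 8.75 in culture with dexamethasone and 8.76 with ethanol. Its segment family is repetitive, so its probe set may read relatives. The exception was Arsi, whose high array was the dexamethasone culture, at 8.99 against 7.58 with ethanol.

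At the bottom of all kept genes, the ethanol array was the lowest of the 5 for 8 of 14 genes shown in the plot of levels. Among those shown, the lowest values were those of Pdgfrb, Dleu7 (-2.77), Usp18 (-2.71), Plagl1 and Nars2 (-2.13). Their in vitro responses were 2.87, 4.11, 3.87, 3.07 and 3.55, in that order, and their in vivo responses 0, 1.34, 1.16, 0.59 and 1.42. Their ethanol levels, 3.89, 5.03, 5.11, 5.66 and 5.41, were each the lowest of the 5 arrays. Values for Nars2 ran from -2.13 to -0.37 over its probe sets. Axl, a receptor for apoptotic cells, stood at 8.02 in mice given dexamethasone and 7.64 with PBS, at 5.24 in culture with dexamethasone and 3.77 with ethanol, a value of -1.09. Pdgfrb, a fibroblast receptor, had -2.87 by the chosen probe set and -0.55 by its other. Plagl1, a zinc finger factor, ran from -2.49 to 0.16 over its probe sets. With the untreated array as the baseline of both settings, Axl gave 2.78 and Srm 1.30, so their signs turned, as they did for Usp18, Bid, Rrs1, Grwd1, Cxcl10, Ccl5, Sprr2a and Sprr2a1. Sprr2a and Sprr2a1, epithelial envelope proteins of a family of near-identical copies, gave -1.90 and -1.95 and may share signal.

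Dtx1 and Ptcra, genes of early thymocytes, were lower with dexamethasone in the animal and nearly level in culture. Dtx1, a Notch pathway ubiquitin ligase, stood at 4.64 in mice given dexamethasone and 6.37 with PBS, at 4.97 in culture with dexamethasone and 4.95 with ethanol, and at 6.63 untreated, a value of -1.75. Both cultured levels of Dtx1 were under 5.28, which limits what its level response in culture can show. Its other probe set gave -0.65. Ptcra, the pre-T cell receptor alpha chain, stood at 5.67 in mice given dexamethasone and 7.03 with PBS, at 6.23 in culture with dexamethasone and 6.38 with ethanol, and at 7.03 untreated, a value of -1.22. Ptcra, though named here with early thymocytes, was also on the double-positive thymocyte list. It was the single gene at most -1 among the 18 kept members, which had a median of -0.18. Rag1, the recombinase, was at 0.18, Rag2 at -0.23 and Cd4 at 0.00. The in vivo dexamethasone array was the lowest of the 5 for 16 of these 18 genes (33.2% of kept genes).

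Of 14 kept members of the NF-kB and cytokine list, 3 were at most -1 (1.61% of kept genes) and 0 at least 1 (2.02%), with a median of -0.26. The chemokine gene Ccl3 of that list, under the level threshold, was at 1.88. Nfkbie, an inhibitor of NF-kB, stood at 7.69 in mice given dexamethasone and 8.65 with PBS, and at 8.54 in culture with dexamethasone and 8.03 with ethanol, a value of -1.47. Cxcl10 and Ccl5, chemokines, gave -1.46 and -1.35 with cultured levels below the in vivo ones. The interferon list had a median of 0.02 over 16 kept genes (1.30 with the untreated array as both baselines). Usp18 was its single kept member past 1 in size, at -2.71. It was higher with dexamethasone in both settings, by 1.16 in vivo and 3.87 in vitro. MHC class II genes had a median of 0.01 over 9 (0.71 with the threshold at the 75th percentile, and 1.85 with the untreated array as both baselines), with H2-Aa, an alpha chain of antigen-presenting cells, past 1 at 1.01.

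The medians of macrophage and adipocyte markers lay above the kept-gene median. That of granulocyte markers lay below it, at -0.61, with 8 of 9 kept members below 0 (63.6% of kept genes). On both cultured arrays 9 of 10 macrophage and 8 of 8 adipocyte markers were under 5.28. All 10 kept macrophage markers had a value above 0 (36.2% of kept genes), 3 were at least 1 (2.02%) and the median was 0.84 (0.70 over all 17). Mrc1, the mannose receptor, stood at 8.57 in mice given dexamethasone and 6.89 with PBS, at 2.69 in culture with dexamethasone and 2.84 with ethanol, and at 7.07 untreated. Its value of 1.83 came from the in vivo arrays, since both cultured levels were near the bottom of the scale. Of 8 kept adipocyte markers, 4 were at least 1 (2.02% of kept genes), with a median of 1.06 (1.01 over all 12). That median was 0.31 with the level threshold at the 75th percentile. Cd36, a fatty acid transporter, stood at 8.96 in mice given dexamethasone and 7.28 with PBS, at 2.50 in culture with dexamethasone and 3.24 with ethanol, and at 8.20 untreated. Adipoq, the fat hormone adiponectin, was at 1.24. Thymic epithelium and fibroblast medians were -0.09 and 0.02, close to the -0.12 of all kept genes. With the untreated array as the baseline of both settings, which leaves the gap between the dexamethasone arrays, the medians were 4.50 for macrophage, 6.26 for adipocyte, 4.57 for epithelial and 4.22 for fibroblast markers.

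**Figure D5:**
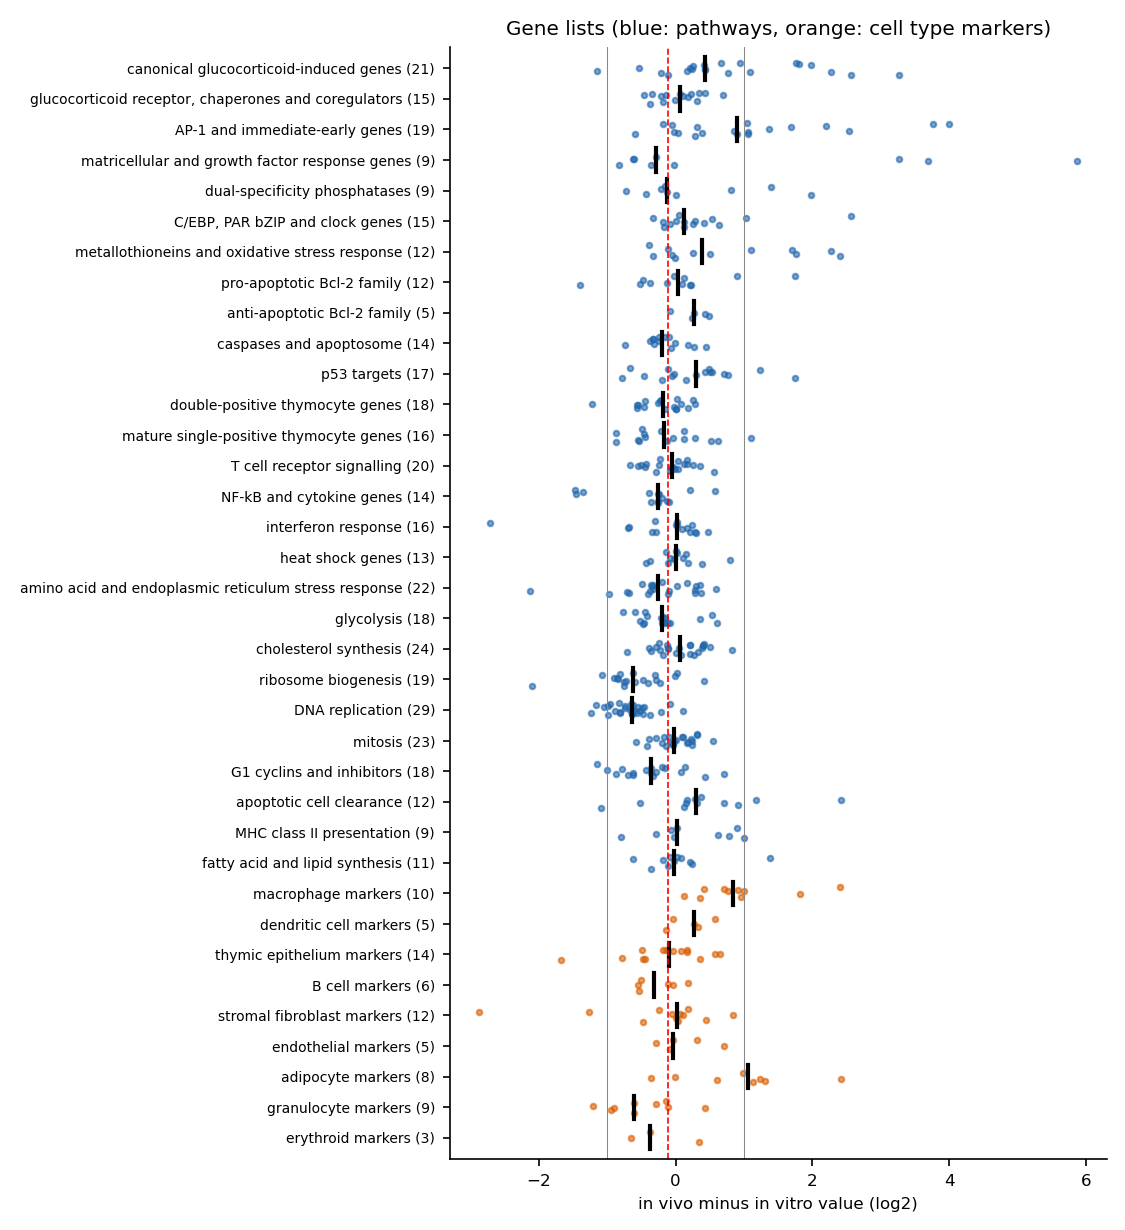
In vivo minus in vitro value (log2) of every kept member of the 36 lists, with the number of kept members in parentheses. Black bars are list medians, the red dashed line is the median of all kept genes, -0.12, and grey lines mark 1 and -1. The DNA replication and ribosome biogenesis bars lie at -0.64 and -0.62, and the adipocyte and immediate-early bars at 1.06 and 0.89.

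Other probe sets of the same gene gave a check within the arrays. Of the 200 genes at the top, 62 had another probe set with a level above the threshold, of which 56 had the same sign, 35 were also at least 1 and 0 were at most -1. Of the 159 at the bottom, 38 had such a probe set, 36 with the same sign and 11 also at most -1. BC018473 had the highest value of all, 6.65, and its other probe set gave -0.07. It stood at 9.35 in mice given dexamethasone and 2.97 with PBS, at 10.75 in culture with dexamethasone and 11.02 with ethanol, and at 4.44 untreated. The PBS and untreated arrays were thus the low ones, and both cultured arrays stood above the in vivo dexamethasone array. With the untreated array as both baselines the value was -1.40. Other genes with a probe set of opposite sign to the value reported included Utp20 (0.46), Rpf2 (0.45), Crem (-0.26), Adipoq (-0.15), Atp6v0a1 (0.09), H2-Aa (-0.02), Sprr2a (0.02) and Axl (0.008). The median gene span was 17.7 kb for 174 of the 200 genes with one and 16.8 kb for 153 of the 159, against 22.6 kb for kept genes.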

How the data were processed

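RNA of 5 thymic cell pools was measured on 5 Affymetrix arrays of 45101 probe sets. The authors summarised them with RMA, per the submitters' processing notes, in a version not given in the sources used here. Log2 values as deposited were used, and the deposited linear intensity matrix equalled it after log2, within 7.11e-15. Symbols in the files were brought up to date with RefSeq genes of GRCm38.p6: 22692 probe sets kept a current symbol, 11309 were named by a unique synonym, 1562 by accession and 4760 by the file's own symbol, while 4714 were unnamed and 64 were controls. Each gene was read from its probe set with the highest mean, and genes at or above the median mean level were kept.

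Differences were taken in Python 3.11.15 with numpy 2.4.6 and pandas 2.3.3 and drawn with matplotlib 3.10.9, and the scripts were tested on simulated data. No test was possible, so genes past a log2 value of 1 were counted. The genes and lists were chosen with earlier results of these data known. Genes named were the 15 highest and lowest, the 10 highest and lowest with vehicle levels within 0.5, 6 each way of opposite and of closest shared responses, up to 4 members per list with the largest values, and 9 fixed names (Tsc22d3, Fkbp5, Nr3c1, Fos, Nfil3, Bcl2l11, Bbc3, Pmaip1 and Usp18). A gene that this rule names and some list members are not reported here. Other list members in the text, and the 4 promoters shown, were chosen after their values or matches were seen. Promoters were found for 61% of the genes at least 1, 76.7% of those at most -1 and 73.7% of ribosome biogenesis genes, too few for a motif share, and none is given for them. Alternatives were other level thresholds, probe set summaries, symbols, normalizations, a linear offset of 32, the untreated array as baseline, near vehicle levels and centred responses.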

Additional observations from a re-analysis of the deposited data

Results flagged for a closer look

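In each result here the in vivo and in vitro responses, or for a list their medians, had opposite signs, on 1 array per group. The difference was not tested. Genes with the in vivo response above 0 and the in vitro response below 0 had in vivo minus in vitro values of 5.87 for Thbs1, 3.08 for Arrdc3, 2.75 for Klf15, 2.10 for Nfkbiz, 1.98 for Steap4, a metalloreductase, and 1.86 for 2310050P20Rik. Steap4 stood at 7.64 in mice given dexamethasone and 6.73 with PBS, against 3.58 in culture with dexamethasone and 4.65 with ethanol. Genes of the converse kind had values of -1.70 for AI834762, -1.67 for Dscc1, -1.53 for Pold2, -1.29 for Lpo, which encodes lactoperoxidase, -1.25 for Atp6v0a1, a proton pump subunit, and -1.20 for Grwd1. Lpo stood at 6.36 in mice given dexamethasone and 7.09 with PBS, against 4.19 in culture with dexamethasone and 3.63 with ethanol. Thbs1 stood at 9.97 in mice given dexamethasone and 4.85 with PBS, against 3.13 in culture with dexamethasone and 3.88 with ethanol. Both cultured levels of Thbs1, Steap4, Lpo and Atp6v0a1 were under 5.28, as was that of Klf15 with dexamethasone. Their in vitro responses are thus differences between low levels, which limits what their sign can show.

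Of the gene lists, the median responses had opposite signs and were both at least 0.2 in size for DNA replication (median in vivo minus in vitro value -0.64), for granulocyte markers (-0.61 over 9 kept genes) and for the anti-apoptotic Bcl-2 family (0.27 over 5 kept genes). Single genes with opposite signs were 25 of 29, 5 of 9 and 1 of 5, in that order. In the anti-apoptotic list both medians were the responses of that 1 gene, Bcl2l2 (0.21 in vivo, -0.29 in vitro). That list as a whole did not respond in opposite directions. Other lists had medians of opposite sign with at least 1 of them under 0.2 in size, among them immediate-early genes (0.91 in vivo, -0.11 in vitro), adipocyte markers (0.83 in vivo, -0.16 in vitro), macrophage markers (0.43 in vivo, -0.15 in vitro), ribosome biogenesis (-0.41 in vivo, 0.15 in vitro) and NF-kB and cytokine genes (-0.37 in vivo, 0.12 in vitro).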

How the results depend on the processing

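No paired analysis was possible because each group had 1 array, and leaving out a replicate was not possible for the same reason. The 200 genes at least 1 and the 159 at most -1 became 418 and 257 without the level threshold, 45 and 30 with it at the 75th percentile, 92 and 90 with all 4 arrays above it, 100 and 44 with 32 added to the linear values, 762 and 348 with the untreated array as both baselines, and 33 and 51 over genes with near vehicle levels. Centring both responses on kept genes, chosen after seeing the data, left 102 at most -1. All other counts stayed within 1.5 times.

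List medians that moved by over 1.5 times with the threshold at the 75th percentile were matricellular genes at 1.33, phosphatases at 0.62, MHC class II at 0.71, adipocyte markers at 0.31 and erythroid markers at 0.35. Near vehicle levels gave thymic epithelium 0.62. With the untreated array as both baselines, which leaves in vivo dexamethasone minus in vitro dexamethasone, they were immediate-early 1.87, matricellular 1.31, phosphatases 1.20, metallothionein list 1.77, anti-apoptotic 1.10, interferon 1.30, cell clearance 3.79, MHC class II 1.85, macrophage 4.50, dendritic 1.61, epithelium 4.57, B cell 0.47, fibroblast 4.22 and adipocyte 6.26, and granulocyte markers turned to 0.54. The same baselines turned the sign of 2310050P20Rik (-0.98), Atp6v0a1 (0.96), Axl (2.78), BC018473 (-1.40), Bid (0.14), Ccl5 (1.44), Col1a1 (1.18), Cxcl10 (2.90), Grwd1 (0.037), Lpo (2.17), Mpo (0.29), Psmb11 (2.53), Rrs1 (0.25), S1pr1 (-0.16), Sprr2a (1.87), Sprr2a1 (1.98), Srm (1.30) and Usp18 (0.23). The median of probe sets turned Ccnd3 (0.092). The causes were not tested. Of 83 named genes past 1, the linear offset left 59 past 1, and among 73 with a value under the mean of probe sets 60 stayed. Levels near the bottom of the scale limit every cultured value under 5.28.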

Other observations

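The genes under the level threshold held further large values, chosen here after they were seen. Among 9882 such genes, 218 were at least 1 and 98 at most -1. Ccn2, a matricellular relative of Ccn1, stood at 9.32 in mice given dexamethasone and 4.45 with PBS, at 2.81 in culture with dexamethasone and 2.74 with ethanol, and at 6.14 untreated, an in vivo minus in vitro value of 4.81. Cxcl2, a neutrophil chemokine, stood at 9.03 in mice given dexamethasone and 4.25 with PBS, against 3.24 in culture with dexamethasone and 3.14 with ethanol. Pdk4, a kinase that restrains pyruvate oxidation, had a value of 4.27, F3, tissue factor, 4.04, Hbegf, a ligand of the EGF receptor, 3.13, and Adamts1, a secreted protease, 3.10. With the threshold removed, 9 of 21 genes of the matricellular and growth factor list were at least 1 (2.11% of all genes). At the low end, Tnfsf11, the cytokine RANKL, had -2.08.

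Myl7 and Myh6, contractile proteins of atrial heart muscle, were high on the untreated and in vivo dexamethasone arrays and low on the other 3. Myl7 stood at 7.20 in mice given dexamethasone and 4.95 with PBS, at 3.94 in culture with dexamethasone and 4.20 with ethanol, and at 7.72 untreated. Myh6 stood at 5.83 in mice given dexamethasone and 2.78 with PBS, at 2.54 in culture with dexamethasone and 2.60 with ethanol, and at 6.58 untreated. Their values were 2.51 and 3.11, and the level on the untreated array was above that on the dexamethasone array in both.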
